A study of Mus musculus with 2 samples.

Results

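Genes for protein folding and quality control in the endoplasmic reticulum (ER) were compared between PPARg-deficient and PPARg-floxed bone marrow stromal cells of the mouse. The set holds 47 genes, which encode ER chaperones, disulfide isomerases, prolyl isomerases, translocon subunits, factors of ER-associated degradation and the sensors of ER stress with factors of their processing. They were chosen by name from 19263 symbols that could be given to the deposited transcripts, and all 47 were found through a whole intron chain. Of these, 42 reached 1 FPKM in at least 1 library. FPKM is a level per transcript length and per sequenced total.

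The study sequenced 1 library from PPARg-deficient cells (genotype PPAR KO) and 1 from PPARg-floxed cells (genotype PPAR-flox), both of marrow from CD-1 mice aged 3 months and both cultured in DMEM with fetal bovine serum. The cells are labelled mesenchymal stem/progenitor cells. The labels do not name the Cre driver, the floxed exons, the number of animals or the passage. With 1 library per genotype no difference below has a replicate error, a test or a p-value. Deposited lower and upper bounds, given with some values, describe the estimate within 1 library.

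Proteins bound for secretion enter the ER through the SEC61 channel, are folded by BiP, GRP94 and the lectins calnexin and calreticulin, and receive disulfide bonds from the PDI family. Proteins that fail to fold are drawn back to the cytosol, tagged with ubiquitin and degraded. When unfolded proteins accumulate, the sensors IRE1, ATF6 and PERK start the unfolded protein response, which induces many of these genes. Stromal cells and osteoblasts depend on this machinery because they secrete collagen.

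The libraries differed as a whole. Transcript coverage summed to 1728 megabases in deficient cells and 1383 megabases in floxed cells, and 10305 loci reached 1 FPKM in deficient and 8295 in floxed cells. Over 10769 kept loci the median log2 fold of FPKM plus 1, deficient over floxed, was 0.86 (1.81-fold). Folds are therefore given relative to this median gene, in brackets after the levels, and a gene was called higher or lower at 2-fold. Pparg was at 1.39 FPKM in deficient cells and 6.86 FPKM in floxed cells (-2.58). Sums of markers are deposited FPKM, with the median shift left in. Of 12 stromal markers 10 were kept, and the list summed to 1832 FPKM in deficient and 1108 FPKM in floxed cells, while Thy1 and Eng were under 1 FPKM in both. Relative to the median gene, the kept stromal markers had a median of -0.37. The 6 leukocyte markers matched, of 7, summed to 0.469 FPKM in deficient and 0.531 FPKM in floxed cells, with Ptprc and Cd3e listed at 0 in both. The 7 macrophage markers summed to 34.4 FPKM in deficient and 6.36 FPKM in floxed cells, with Lyz2 at 19.5 FPKM in deficient and 0.258 FPKM in floxed cells and Adgre1 and Fcgr1 listed at 0 in both. Endothelial markers summed to 0.265 FPKM in deficient and 0.0210 FPKM in floxed cells, erythroid and megakaryocyte markers to 0.748 FPKM in deficient and 0 FPKM in floxed cells, and adipocyte markers to 12.9 FPKM in deficient and 27.9 FPKM in floxed cells. Of the markers of plasma cells, which are rich in ER, Sdc1 was at 6.52 FPKM in deficient and 2.09 FPKM in floxed cells and Jchain, Mzb1, Prdm1 and Irf4 were listed at 0 in both. The part of the macrophage and adipocyte markers in the results was not tested. In bulk RNA, fewer cells of a type and less RNA per cell cannot be told apart.

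The ER genes did not move as a block. Relative to the median gene, 3 of 42 kept genes were called higher in deficient cells (Fkbp2, Pdia5 and Dnajb11), against 10.3% of all kept loci. Another 11 were called lower (Sec61a1, Canx, Ppib, Ssr2, Calr, Pdia4, Ssr3, Sec61g, Fkbp14, Edem1 and Pdia3), against 11.8% of all kept loci. Of the set, 7.14% was thus called higher and 26.2% lower, and 28 genes lay within 2-fold. The median of the set was 0.13, and its sign depends on the setting, with -0.13 at a pseudocount of 0.1 FPKM. With no filter on low values it was 0.74, but there the median gene lay at 0.05, so little of the shift was removed. On deposited FPKM, without the shift removed, 21 genes were called higher (background 41.9%) and 1, Sec61a1, lower (background 4.73%). The 11 genes called lower are those whose deposited FPKM was smaller in deficient cells. The bounds of the most abundant transcript did not overlap between libraries for 35 of the 42 genes, against 72.4% of kept loci. That transcript was the one with the largest FPKM summed over both libraries. Here and below, bounds were compared as deposited, with the median shift left in, while relative calls were made with it removed.

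**Figure D1:**
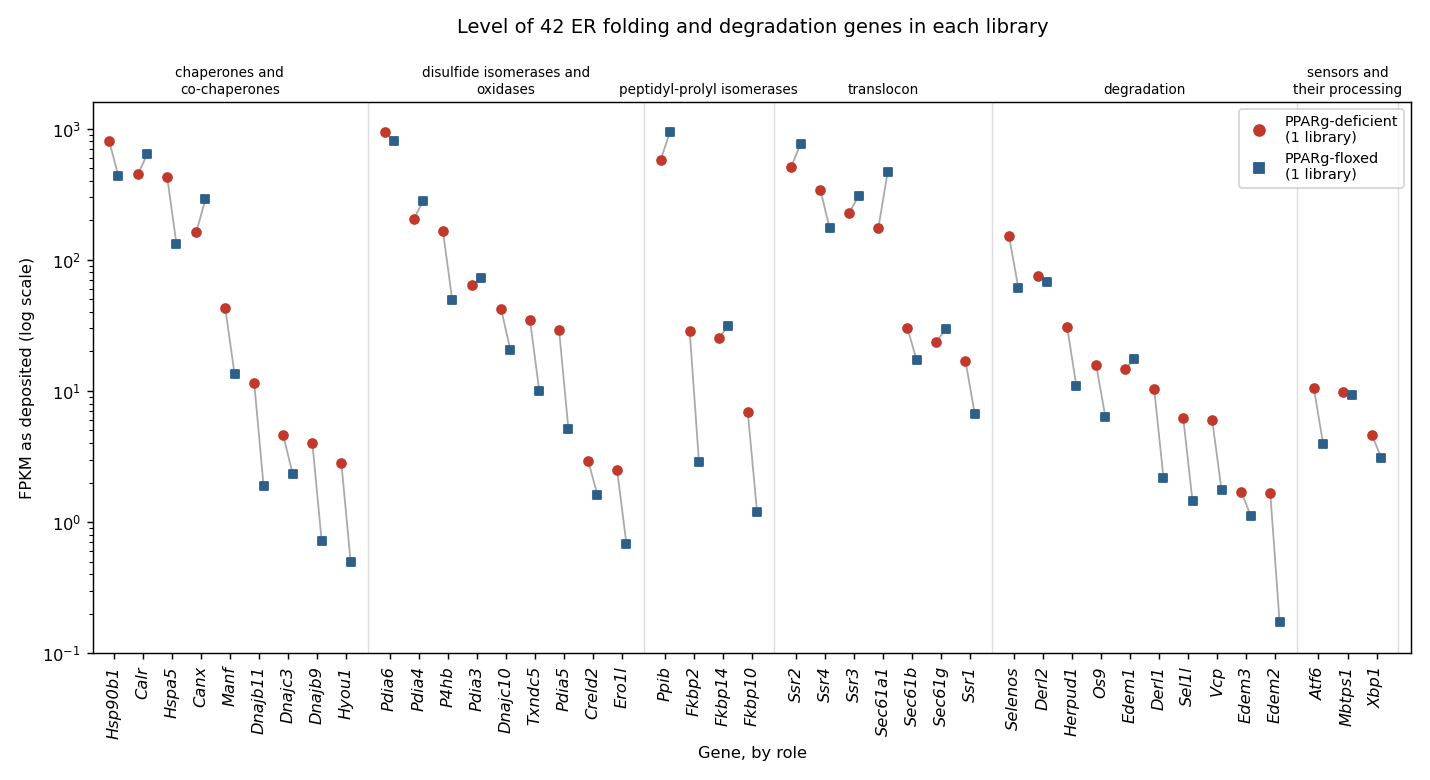
Deposited FPKM (log axis) of the 42 kept genes in the PPARg-deficient library (left of each pair) and the PPARg-floxed library (right), grouped by role, with a line joining the values of each gene. Most genes are higher in the deficient library, while 11, Sec61a1 and Calr among them, are lower.

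Summed over the kept genes, the deposited level was 5706 FPKM in deficient cells and 5695 FPKM in floxed cells, a ratio of 0.553 once divided by the fold of the median gene. The set made up 0.815% of the FPKM of all kept loci in deficient cells and 0.887% in floxed cells. Of 13 genes with a mean level of at least 100 FPKM, a limit chosen after the values were seen, 7 were called lower and 0 higher, with a median of -1.28. Of the other 29, 4 were called lower and 3 higher, with a median of 0.35. Among all loci under 100 FPKM, 10.9% were called lower and 10.3% higher, with a median of 0.01. Among all 911 loci of at least 100 FPKM, 21.1% were called lower and 10.3% higher, with a median of -0.19. Against loci of the same level, 4 ER genes were called higher (background 9.23%), with Hspa5 added, and 10 lower (background 11.8%), without Calr and Ssr2 and with Mbtps1. Dnajb9, Hyou1, Ero1l and Edem2 were under 1 FPKM in floxed cells and were kept through deficient cells alone. Over the 38 genes at 1 FPKM or more in both libraries the median was -0.02.

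**Figure D2:**
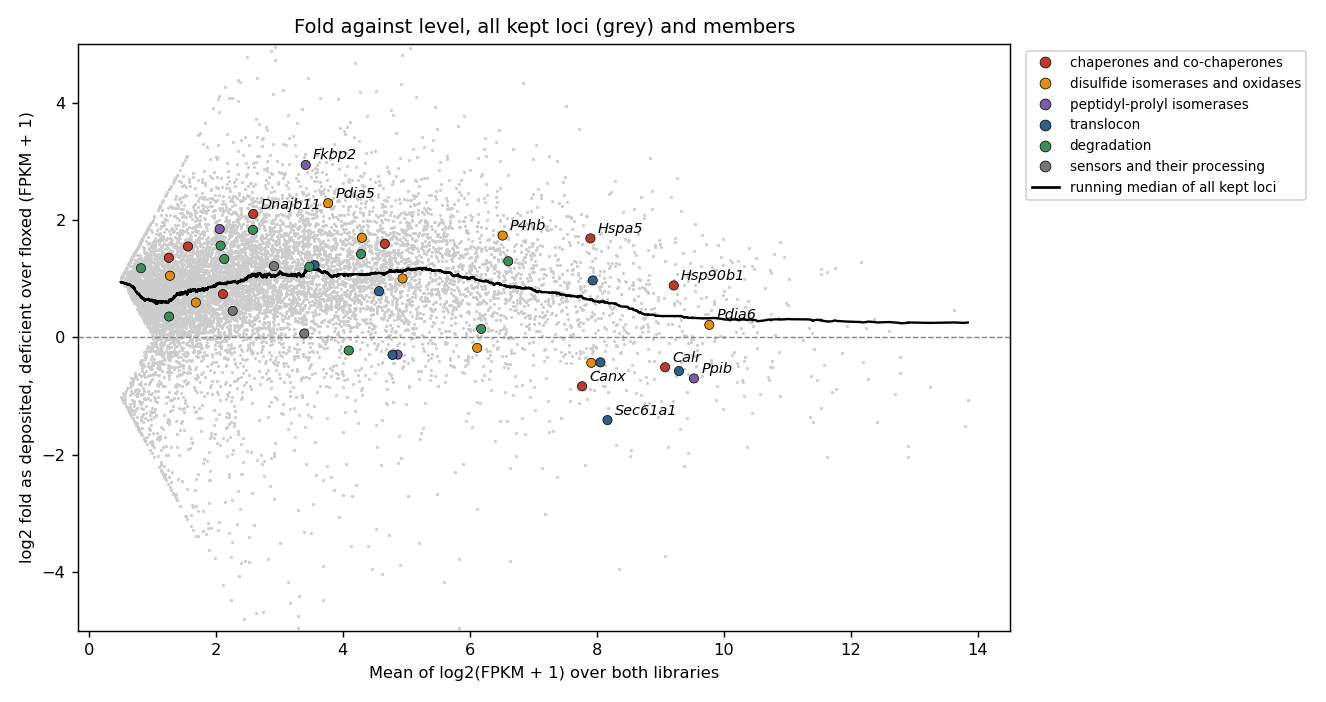
Deposited log2 fold (deficient over floxed, FPKM plus 1) against the mean log2 level of both libraries. Kept loci are grey and the 42 ER genes coloured by role, with the running median over all kept loci as a line. The fold axis ends at 5 in either direction, and 31 loci lie outside it. Fkbp2, Pdia5, Dnajb11 and Hspa5 lie above the line by at least 2-fold and of the ER genes Sec61a1 lies farthest below it.

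Promoters were searched for letters known to be read by ATF6 and XBP1, the transcription factors of the stress sensors. RefSeq promoters (GRCm38.p6, from 250 bases before to 50 bases after the start) were found for 40 of the 47 genes, and both strands were searched. Only exact matches were counted and marked, so an element that differs at any fixed base was missed. The ER stress response element (ERSE), which is CCAAT, 9 bases of any kind and CCACG, was present in 9 of them (22.5%) and in 0.119% of all 32851 promoters. ERSE-II, which is ATTGG, 1 base of any kind and CCACG, was present in Dnajb11 and Herpud1 and in 0.0365% of all promoters. TGACGTGG, the unfolded protein response element, was present in Txndc5 and Vcp and in 0.676% of all. CCACG alone, which is part of both ERSE and ERSE-II, was present in 33 of the 40 and in 32.8% of all. The cyclic AMP response element TGACGTCA was present in 0 of the set and 1.79% of all promoters, and TGATGCAA, which ATF4 reads, in Herpud1 and 0.895% of all. The set was counted by gene and the background by promoter. These shares describe the reference sequence of genes chosen by name and are no result of the libraries. The promoters of 4 genes are given, chosen after their values were seen, because they run from a gene called higher to one called lower and each holds an element. They run along the strand of the gene, with ERSE or ERSE-II in capitals.
Dnajb11, ERSE-II, chr16:22857595-22857894 (+): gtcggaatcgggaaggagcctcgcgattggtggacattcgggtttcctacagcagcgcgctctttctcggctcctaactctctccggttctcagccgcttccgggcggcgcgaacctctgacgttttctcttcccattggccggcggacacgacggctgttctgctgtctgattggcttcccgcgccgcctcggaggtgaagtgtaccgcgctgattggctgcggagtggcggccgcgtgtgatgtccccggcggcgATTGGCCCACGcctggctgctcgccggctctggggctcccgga
Hspa5, ERSE, chr2:34771840-34772139 (+): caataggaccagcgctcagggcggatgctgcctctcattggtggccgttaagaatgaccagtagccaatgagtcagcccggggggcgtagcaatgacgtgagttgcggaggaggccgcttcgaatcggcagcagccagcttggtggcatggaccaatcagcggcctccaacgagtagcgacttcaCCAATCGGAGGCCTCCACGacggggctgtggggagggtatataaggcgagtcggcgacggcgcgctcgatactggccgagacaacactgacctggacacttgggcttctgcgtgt
Hsp90b1, ERSE on each strand, chr10:86705395-86705694 (-): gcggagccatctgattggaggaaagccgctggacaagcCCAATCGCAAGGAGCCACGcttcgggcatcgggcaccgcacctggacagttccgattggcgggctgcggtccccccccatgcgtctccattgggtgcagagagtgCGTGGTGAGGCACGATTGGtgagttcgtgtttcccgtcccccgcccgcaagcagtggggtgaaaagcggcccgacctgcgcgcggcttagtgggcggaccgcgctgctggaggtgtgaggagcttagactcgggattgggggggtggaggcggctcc
Canx, ERSE, chr11:50325624-50325923 (-): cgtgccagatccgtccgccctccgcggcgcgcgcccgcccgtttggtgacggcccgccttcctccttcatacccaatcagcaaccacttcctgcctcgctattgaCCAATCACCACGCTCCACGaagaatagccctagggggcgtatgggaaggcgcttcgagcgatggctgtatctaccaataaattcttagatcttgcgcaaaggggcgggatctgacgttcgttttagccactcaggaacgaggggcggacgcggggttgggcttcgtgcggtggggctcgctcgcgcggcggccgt

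For the other genes the element is given with 10 bases on each side, to show how the bases inside it differ from gene to gene.
Calr, ERSE, chr8:84847065-84847103 (-): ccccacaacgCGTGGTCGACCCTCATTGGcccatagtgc
Pdia6, ERSE, chr12:17266481-17266519 (+): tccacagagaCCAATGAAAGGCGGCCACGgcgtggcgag
Dnajc3, ERSE, chr14:118937817-118937855 (+): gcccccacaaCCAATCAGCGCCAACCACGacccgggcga
Creld2, ERSE, chr15:88819510-88819548 (+): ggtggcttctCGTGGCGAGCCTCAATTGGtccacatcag
Syvn1, ERSE, chr19:6046522-6046560 (+): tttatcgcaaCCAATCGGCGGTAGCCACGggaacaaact
Derl3, ERSE, chr10:75893232-75893270 (+): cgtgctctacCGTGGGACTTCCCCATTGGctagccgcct
Herpud1, ERSE-II, chr8:94386367-94386397 (+): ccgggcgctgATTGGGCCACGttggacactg
Counted from the start, the ERSE of Hspa5 lay at -65 to -47, that of Canx at -145 to -127 and that of Calr, on the opposite strand, at -162 to -144. The ERSE-II of Dnajb11 lay after the start, at bases 8 to 18. Of the 9 genes with an ERSE 7 were kept, and 0 were called higher and 2, Calr and Canx, lower, with a median of -0.26, where 10.3% and 11.8% of all kept loci were called higher and lower. Against loci of the same level Hspa5 was called higher (1.04) and Calr was not called (-0.87). A match of letters is no measure of binding.

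Among chaperones and co-chaperones, Dnajb11 was called higher, Canx and Calr were called lower, and the other 6 of 9 kept genes lay within 2-fold. Hsp90b1 (chr10:86153586-86168189, mm9), for GRP94, the HSP90 of the ER, was the most abundant. It was at 805 FPKM in deficient cells and 435 FPKM in floxed cells (0.03), with bounds of 793 to 816 FPKM in deficient cells and 427 to 444 FPKM in floxed cells, and so stayed near the median gene. Hspa5 (chr2:34627610-34632049, mm9), for BiP, the HSP70 of the ER, was at 427 FPKM in deficient cells and 132 FPKM in floxed cells (0.83), and at 1.04 against loci of the same level. The bounds of its main transcript, 276 to 419 FPKM in deficient cells and 115 to 125 FPKM in floxed cells, do not overlap.

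The lectin chaperones, which hold newly glycosylated proteins, were lower. Calr (chr8:87365987-87370830, mm9), for calreticulin, was at 451 FPKM in deficient cells and 642 FPKM in floxed cells (-1.37), with bounds of 441 to 462 FPKM in deficient cells and 629 to 655 FPKM in floxed cells. It was not called against loci of the same level (-0.87) or with a pseudocount of 5 FPKM (-0.94). Canx (chr11:50107459-50139175, mm9), for the membrane-bound calnexin, was at 162 FPKM in deficient cells and 289.7 FPKM in floxed cells (-1.69), and its transcripts are described further on.

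Of the kept partners of BiP, Dnajb11 and Manf lay above the median gene and Dnajc3 below it. Dnajb9 and Hyou1 lay above it too, but they were kept through deficient cells alone. Dnajb11 (chr16:22857918-22879707, mm9), for ERdj3, which hands unfolded proteins to BiP, was at 11.5 FPKM in deficient cells and 1.90 FPKM in floxed cells (1.25). The bounds of its main transcript were 9.81 to 13.1 FPKM in deficient cells and 1.22 to 2.58 FPKM in floxed cells, at a mean read depth per base of 17.0 in deficient and 2.44 in floxed cells. Manf, a stress-induced secreted ER protein, was at 42.9 FPKM in deficient and 13.6 FPKM in floxed cells (0.74). The rest stayed under 5 FPKM and within 2-fold. Dnajb9, for ERdj4, was at 4.05 FPKM in deficient and 0.724 FPKM in floxed cells (0.69), and Hyou1, for the exchange factor GRP170, at 2.83 FPKM in deficient and 0.496 FPKM in floxed cells (0.50). With a pseudocount of 0.1 FPKM both were called higher, at 1.19 and 1.16, and with 5 FPKM neither was, at 0.23 and 0.08. Dnajc3, for p58IPK, was at 4.58 FPKM in deficient and 2.35 FPKM in floxed cells (-0.12). Sdf2l1, a partner of ERdj3, was not kept, at 0.473 FPKM in deficient and 0.610 FPKM in floxed cells.

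Among disulfide isomerases and oxidases, Pdia5 was called higher, Pdia4 and Pdia3 were called lower, and 6 of 9 lay within 2-fold. Pdia6 (chr12:17273372-17291576, mm9), for an isomerase that works with BiP, was the most abundant, at 939 FPKM in deficient cells and 810.1 FPKM in floxed cells (-0.64). Its main transcript had bounds of 848 to 877 FPKM in deficient cells and 739.9 to 767 FPKM in floxed cells. P4hb, for PDI, which is also a subunit of collagen prolyl 4-hydroxylase, was at 166 FPKM in deficient cells and 49.2 FPKM in floxed cells (0.88), short of the 2-fold rule. Pdia5 (chr16:35397392-35490959, mm9) was at 29.1 FPKM in deficient cells and 5.16 FPKM in floxed cells (1.43), with bounds of 15.3 to 20.4 FPKM in deficient cells and 2.70 to 5.003 FPKM in floxed cells for its main transcript.

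The 2 isomerases called lower differed in how far they were from the rule. Pdia4, for ERp72, was at 206 FPKM in deficient cells and 279 FPKM in floxed cells (-1.29), with bounds of 199.998 to 212 FPKM in deficient cells and 272 to 286 FPKM in floxed cells. Pdia3, for ERp57, which calnexin and calreticulin recruit, was at 64.1 FPKM in deficient cells and 72.7 FPKM in floxed cells (-1.04), with bounds of 60.8 to 67.5 FPKM in deficient cells and 69.1 to 76.3 FPKM in floxed cells. Neither was called with a pseudocount of 5 FPKM, at -0.86 for Pdia4 and -0.60 for Pdia3. The remaining genes lay within 2-fold. Txndc5, an isomerase, was at 34.5 FPKM in deficient and 9.93 FPKM in floxed cells (0.84). A Txndc5 transcript of 3 exons held 49.2% of this in deficient and 42.8% in floxed cells. Dnajc10, for the reductase ERdj5, was at 42.5 FPKM in deficient and 20.7 FPKM in floxed cells (0.15). Creld2, a stress-induced ER protein, was at 2.95 FPKM in deficient and 1.62 FPKM in floxed cells (-0.26), and Ero1l, for the oxidase that recharges PDI, at 2.48 FPKM in deficient and 0.683 FPKM in floxed cells (0.19).

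The 4 prolyl isomerases, which matter for collagen folding, ranged from -1.56 to 2.08. Ppib (chr9:65907976-65914436, mm9), for cyclophilin B, was at 579 FPKM in deficient cells and 940.3 FPKM in floxed cells (-1.56), with bounds of 560.4 to 597 FPKM in deficient cells and 917 to 964 FPKM in floxed cells. Fkbp2 (chr19:7052229-7054951, mm9), for FKBP13, had the highest fold of the set, at 28.5 FPKM in deficient cells and 2.85 FPKM in floxed cells (2.08). Its main transcript had bounds of 10.8 to 20.1 FPKM in deficient cells and 1.13 to 4.57 FPKM in floxed cells, at a mean read depth per base of 19.3 in deficient and 2.58 in floxed cells. The other Fkbp2 transcript, of 644 nt, was at 13.1 FPKM in deficient and 1.5e-05 FPKM in floxed cells. With the most abundant transcript alone, the relative log2 fold of Fkbp2 was 1.23, below the 1.78 of Fkbp10. Fkbp10 and Fkbp14 again went apart. Fkbp10, for the collagen chaperone FKBP65, was at 6.90 FPKM in deficient and 1.20 FPKM in floxed cells (0.99), just short of the rule. Fkbp14, for FKBP22, was at 25.3 FPKM in deficient and 31.2 FPKM in floxed cells (-1.15). The bounds of its main transcript, 16.9 to 20.9 FPKM in deficient cells and 20.4 to 24.96 FPKM in floxed cells, overlap as deposited, without the shift removed.

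The translocon had the lowest median of the roles, -1.15, with 4 of 7 genes called lower and 0 higher, against 11.8% of all kept loci called lower. Of the 4, Sec61a1, Ssr2 and Ssr3 were above 100 FPKM, where 21.1% of loci were called lower, and Ssr2 was not called against loci of the same level (-0.94). Sec61a1 (chr6:88453601-88468794, mm9), for the pore of the channel, was at 175 FPKM in deficient cells and 467 FPKM in floxed cells (-2.27), the lowest fold of the set. Its bounds were 170.2 to 180.5 FPKM in deficient cells and 459 to 476 FPKM in floxed cells, at a mean read depth per base of 296 in deficient and 777 in floxed cells. The paralogue Sec61a2 was at 16.2 FPKM in deficient and 5.95 FPKM in floxed cells (0.45), and how reads that fit both genes were assigned is not stated. The small channel subunits were less abundant per length. Sec61g was at 23.8 FPKM in deficient and 29.5 FPKM in floxed cells (-1.15). The bounds of its main transcript, 10.6 to 18.1 FPKM in deficient cells and 12.1 to 20.2 FPKM in floxed cells, overlap as deposited, without the shift removed. Sec61b was at 30.2 FPKM in deficient and 17.1 FPKM in floxed cells (-0.07).

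The subunits of the translocon-associated protein complex, which helps some signal sequences into the channel, differed among themselves. Ssr2, for the beta subunit, was the most abundant translocon gene, at 513 FPKM in deficient cells and 764 FPKM in floxed cells (-1.43). Its transcript of 1047 nt was at 202 FPKM (192 to 213) in deficient cells and 394 FPKM (379 to 409) in floxed cells, and that of 294 nt at 310.1 FPKM (265 to 356) in deficient and 369 FPKM (318 to 421) in floxed cells. As deposited, the bounds overlap for the short one and not for the 1047 nt one. Ssr3, for the gamma subunit, was at 229 FPKM in deficient and 307 FPKM in floxed cells (-1.28), with bounds of 174 to 185 FPKM in deficient cells and 266 to 281 FPKM in floxed cells for its main transcript. Beta and gamma were called lower, while alpha and delta were not. Ssr4, for the delta subunit, was at 342 FPKM in deficient and 174 FPKM in floxed cells (0.11) and Ssr1, for the alpha subunit, at 17.0 FPKM in deficient and 6.66 FPKM in floxed cells (0.37).

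**Figure D3:**
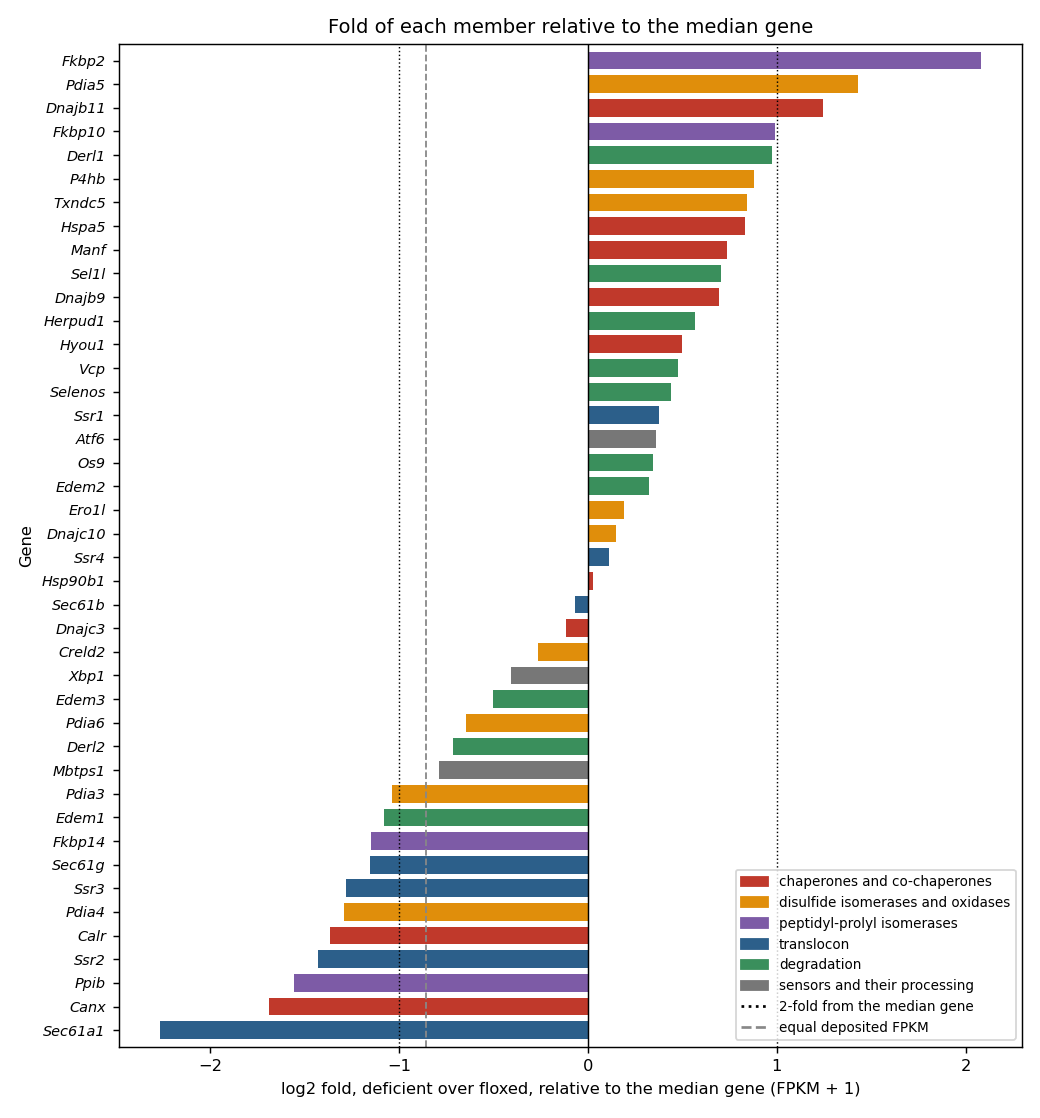
Log2 fold (deficient over floxed, FPKM plus 1) relative to the median gene for each of the 42 kept genes, ordered by fold and coloured by role, with dotted lines at 2-fold. The range runs from -2.27 for Sec61a1 to 2.08 for Fkbp2, and 4 of the 11 genes called lower belong to the translocon.

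Of 10 kept genes of ER-associated degradation 7 were above the median gene, 0 were called higher and 1, Edem1, lower. Edem2, one of the 7, was kept through deficient cells alone. With a pseudocount of 0.1 FPKM Edem2 (1.55) and Derl1 (1.06) were called higher, and with 5 FPKM Edem2 lay below the median gene (-0.07). Selenos, for a selenoprotein of the retrotranslocation complex, was the most abundant, at 152 FPKM in deficient cells and 61.1 FPKM in floxed cells (0.44), with bounds of 143 to 159.7 FPKM in deficient cells and 55.8 to 66.3 FPKM in floxed cells. Derl1, for Derlin-1 of the same complex, was at 10.3 FPKM in deficient and 2.18 FPKM in floxed cells (0.98) and Derl2 at 75.2 FPKM in deficient and 67.9 FPKM in floxed cells (-0.71), while Derl3 was listed at 0 in both. The Derlins thus lay on both sides of the median gene. Herpud1, for a stress-induced scaffold of the ligase complex, was at 30.9 FPKM in deficient and 10.9 FPKM in floxed cells (0.56). Sel1l, for the adaptor of the ubiquitin ligase HRD1, was at 6.24 FPKM in deficient and 1.45 FPKM in floxed cells (0.71), and Syvn1, for HRD1 itself, was not kept, at 0.131 FPKM in deficient and 0.101 FPKM in floxed cells. Os9, for a lectin that delivers glycoproteins to the ligase, was at 15.8 FPKM in deficient and 6.31 FPKM in floxed cells (0.35). A short Os9 transcript, of 670 nt and 6 exons, held 81.3% of this in deficient and 78.6% in floxed cells. Vcp, for the ATPase that pulls substrates out, was at 5.96 FPKM in deficient and 1.76 FPKM in floxed cells (0.48). A Vcp transcript of 2 exons held 46.2% of this in deficient and 36.0% in floxed cells. The EDEM proteins, which help mark misfolded glycoproteins for removal, differed too. Edem1 (chr6:108778635-108809350, mm9) was at 14.8 FPKM in deficient cells and 17.4 FPKM in floxed cells (-1.08), with bounds of 12.9 to 15.1 FPKM in deficient cells and 16.2 to 18.6 FPKM in floxed cells for its main transcript. Edem2 was at 1.66 FPKM in deficient and 0.173 FPKM in floxed cells (0.32) and Edem3 at 1.71 FPKM in deficient and 1.12 FPKM in floxed cells (-0.50).

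None of the 3 kept genes for the sensors and their processing was called relative to the median gene. Atf6, for the sensor that is cut in the Golgi to release a transcription factor, was at 10.5 FPKM in deficient cells and 3.95 FPKM in floxed cells (0.36). Mbtps1, for the protease that cuts ATF6, was the most abundant over both libraries, at 9.74 FPKM in deficient and 9.25 FPKM in floxed cells (-0.79), with bounds of 6.25 to 10.1 FPKM in deficient cells and 1.48 to 2.76 FPKM in floxed cells for its main transcript. Xbp1, whose mRNA is spliced by IRE1, was at 4.62 FPKM in deficient and 3.11 FPKM in floxed cells (-0.41) with 1 transcript listed, so its spliced form was not measured apart. Ern1, for IRE1, was at 0.0283 FPKM in deficient cells and listed at 0 in floxed cells, and Atf6b was at 0.643 FPKM in deficient and 0.142 FPKM in floxed cells, so neither was kept.

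Canx and Mbtps1 also differed in the transcript that carried the FPKM. The comparison took 19 ER genes with several transcripts and at least 5 FPKM in both libraries. Of these, 2 (Canx and Mbtps1) had a transcript whose share differed by at least 50 percentage points, against 4.16% of 2498 such loci. The limit was chosen after the values were seen. The largest share difference of a gene had a median of 5.66 points over the 19 genes and 10.3 points over all such loci. The Canx transcript of 4289 nt was at 119 FPKM (115 to 123) in deficient cells and 18.1 FPKM (16.1 to 19.998) in floxed cells, or 73.4% of the gene's FPKM in deficient and 6.23% in floxed cells. The transcript of 4253 nt was at 39.95 FPKM (37.2 to 42.7) in deficient and 272 FPKM (266 to 277) in floxed cells, or 24.6% in deficient and 93.8% in floxed cells. The main Canx transcript thus differed between the libraries. The pair differs in the first exon alone, which is 181 nt in the longer and 145 nt in the shorter. For Mbtps1 the transcript of 4225 nt held 83.9% in deficient and 22.9% in floxed cells, and that of 4146 nt 5.60% in deficient and 53.3% in floxed cells. Herpud1 came next, with a transcript of 1903 nt that held 0.08% in deficient and 31.9% in floxed cells.

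**Figure D4:**
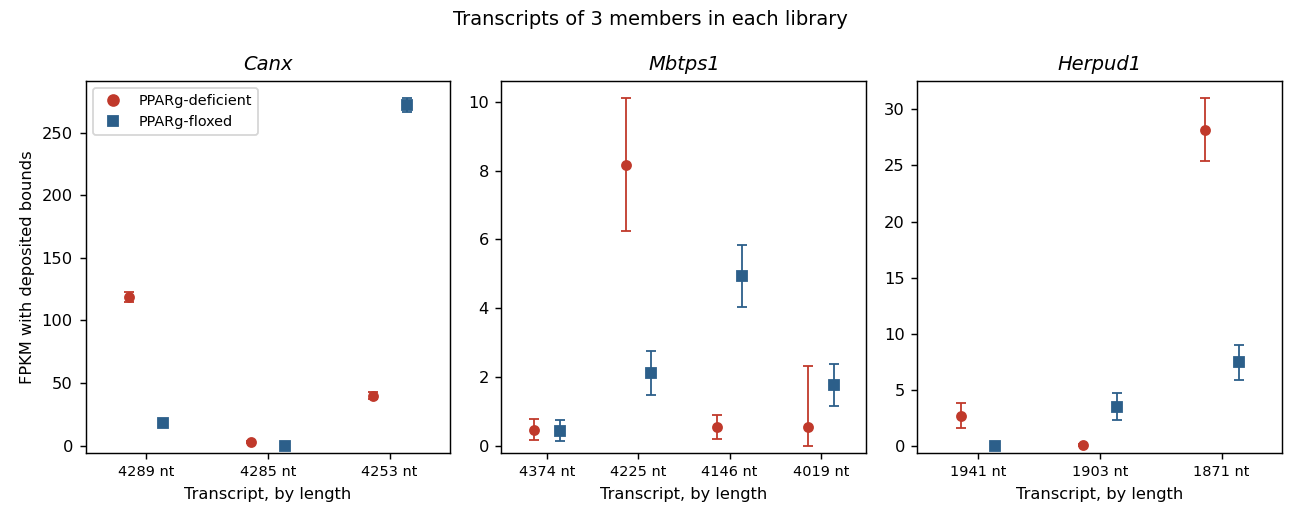
FPKM of each transcript of Canx, Mbtps1 and Herpud1 in the PPARg-deficient and PPARg-floxed libraries, with deposited lower and upper bounds as bars. The Canx transcripts of 4289 and 4253 nt change order between the libraries.

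Neighbouring gene lists were counted the same way, to be read against the 10.3% of all kept loci called higher and the 11.8% called lower. As in the set, a gene under 1 FPKM in floxed cells was kept through deficient cells alone. Of 20 kept ER foldases outside the set 5 were called lower and 1 higher, with a median of -0.49. Prdx4, an ER peroxidase, was at 86.0 FPKM in deficient cells and 265 FPKM in floxed cells (-2.47), and Qsox1, a sulfhydryl oxidase, at 47.2 FPKM in deficient and 104 FPKM in floxed cells (-1.98). Fkbp7 was at 84.7 FPKM in deficient and 149.7 FPKM in floxed cells (-1.67) and Txndc12 at 83.6 FPKM in deficient and 114 FPKM in floxed cells (-1.30). In the oligosaccharyltransferase and lectin cycle, 1 of 20 kept genes was called higher and 4 lower, with a median of -0.24. Its named genes are subunits of the transferase, namely Tusc3 at 12.7 FPKM in deficient and 37.5 FPKM in floxed cells (-2.35), Stt3a at 345 FPKM in deficient and 551 FPKM in floxed cells (-1.53), Ostc at 174 FPKM in deficient and 217 FPKM in floxed cells (-1.17) and Rpn2 at 257 FPKM in deficient and 302 FPKM in floxed cells (-1.09). Other subunits lay above the median gene, with relative log2 folds of 0.61 for Magt1, 0.57 for Rpn1, 0.18 for Krtcap2 and 0.04 for Stt3b, and the cargo receptor Lman1, named after its value was seen, was the gene called higher (1.02). In signal recognition, signal peptidase and translocon partners, 0 of 17 kept genes were called higher and 2 lower, with a median of 0.04, and the share called lower was close to the 11.8% of all kept loci. Spcs1 of the signal peptidase was at 463 FPKM in deficient and 548 FPKM in floxed cells (-1.10), Srp19 of the signal recognition particle at 213 FPKM in deficient and 241 FPKM in floxed cells (-1.04), its receptor Srpr at 32.2 FPKM in deficient and 32.8 FPKM in floxed cells (-0.88) and Sec62 at 34.9 FPKM in deficient and 34.6 FPKM in floxed cells (-0.84).

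Among other genes of ER-associated degradation, 2 of 20 kept genes were called higher and 0 lower, with a median of -0.15, and the share called higher was close to the 10.3% of all kept loci. Aup1 was at 13.0 FPKM in deficient cells and 1.52 FPKM in floxed cells (1.62), and Ube2g2, for the conjugating enzyme that AUP1 recruits, at 23.9 FPKM in deficient and 4.65 FPKM in floxed cells (1.28). Svip was at 5.12 FPKM in deficient and 0.733 FPKM in floxed cells (0.96) and Ufd1, for a cofactor of the VCP ATPase, at 153 FPKM in deficient and 57.8 FPKM in floxed cells (0.53). In the COPII coat and ER retrieval, 1 of 19 kept genes was called higher and 3 lower, with a median of -0.30. Of the receptors that return escaped chaperones, Kdelr1 was at 25.2 FPKM in deficient and 1.67 FPKM in floxed cells (2.44) and Kdelr2 at 27.9 FPKM in deficient and 46.1 FPKM in floxed cells (-1.56), while Kdelr3, the most abundant, lay near the median gene at 109 FPKM in deficient and 54.2 FPKM in floxed cells (0.14). Sec31a of the coat was at 79.3 FPKM in deficient and 108 FPKM in floxed cells (-1.30) and the cargo receptor Tmed9 at 492 FPKM in deficient and 143 FPKM in floxed cells (0.92).

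In the PERK and ATF4 arm, 4 of 9 kept genes were called higher and 0 lower, with a median of 0.76, against 10.3% of all kept loci called higher. Of the 4, Trib3 was kept through deficient cells alone. Ddit3, for CHOP, was at 221 FPKM in deficient cells and 25.1 FPKM in floxed cells (2.23), Ppp1r15a, for the phosphatase subunit GADD34, at 18.2 FPKM in deficient and 1.76 FPKM in floxed cells (1.94), Trib3 at 5.18 FPKM in deficient and 0.299 FPKM in floxed cells (1.39) and Atf4 at 55.9 FPKM in deficient and 12.0 FPKM in floxed cells (1.28). The other 5 kept genes lay within 2-fold and were named after their values were seen. Chac1 (0.76), Cebpg (0.60) and Eif2s1 (0.51) were above the median gene. Nupr1, at 987 FPKM in deficient and 967 FPKM in floxed cells (-0.83), and Asns, at 506 FPKM in deficient and 338 FPKM in floxed cells (-0.27), were below it. Eif2ak3, for PERK, was not kept, at 0.672 FPKM in deficient and 0.720 FPKM in floxed cells. Among chaperones of the cytosol and mitochondria, 5 of 21 kept genes were called higher and 1 lower, with a median of 0.50. Cct4 of the chaperonin was at 45.1 FPKM in deficient and 5.07 FPKM in floxed cells (2.07), Hsph1 at 15.6 FPKM in deficient and 1.38 FPKM in floxed cells (1.95) and the mitochondrial Hspe1 at 374 FPKM in deficient and 75.8 FPKM in floxed cells (1.43), while the constitutive Hspa8 was at 972 FPKM in deficient and 1649.5 FPKM in floxed cells (-1.62). No difference between lists was tested.

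**Figure D5:**
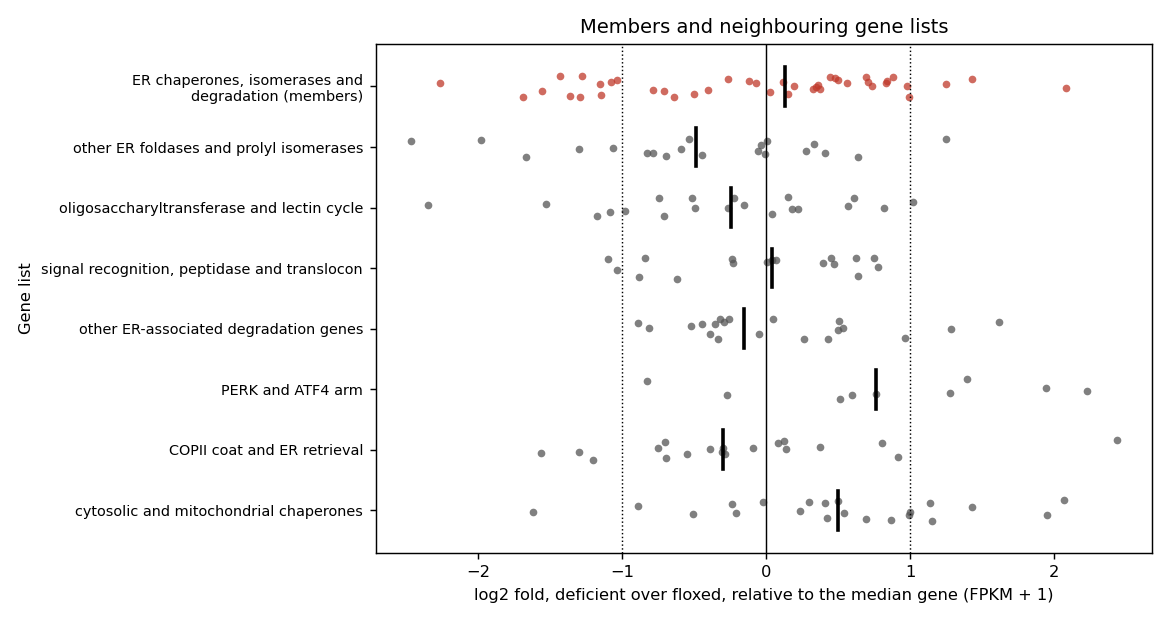
Log2 fold (deficient over floxed, FPKM plus 1) relative to the median gene for the kept ER genes and the kept genes of 7 neighbouring lists, with 1 point per gene and a bar at each median. The median is 0.76 for the PERK and ATF4 arm and -0.49 for the other ER foldases.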

How the data were processed

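Total RNA of 2 cultures was sequenced (HiSeq2000, per the design text), and the genotype label gave the groups. The authors deposited FPKM per transcript, with lower and upper bounds and coverage, in transcript files whose attributes name these fields, per the file headers. TopHat2 2.0.5, Cufflinks 2.0.2, Cuffdiff 2.0.2 and mm9 are named without roles, per the submitters' processing notes. Strand handling and annotation: not given in the sources used here. The depth in reads is unknown, and other values deposited by the authors were not used.

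Symbols came from GENCODE M21, by matching intron and internal exon lengths of 45543 transcripts with no coordinate converted. Of 25707 loci, 140 that held several genes were split. FPKM was summed per locus. Kept loci reached 1 FPKM in 1 library and a transcript of 300 nt. Folds used a pseudocount of 1 FPKM, which understates changes of low genes. Bounds are given for called genes and the most abundant gene of each role, and up to 4 genes of at least 5 FPKM in 1 library with the largest fold relative to the median gene are named per neighbouring list. The genes and lists were chosen with earlier results of these data known. The calculation was tested on simulated data. Alternatives covered pseudocounts, filters, scaling, transcripts, fold limits and naming, with named loci only and loci of the same level added after seeing the data. Python 3.11.15, numpy 2.4.6, pandas 2.3.3 and matplotlib 3.10.9 were used.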

Additional observations from a re-analysis of the deposited data

How the results depend on the processing

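None of the 14 called genes changed direction under the 11 alternatives that give each gene a fold, and Fkbp2, Pdia5 and Sec61a1 stayed past 2-fold in all 11. Dnajb11 was lost with a pseudocount of 5 FPKM. Relative to the median gene, no filter on low values gave 19 higher, 1 lower and a median of 0.74. A pseudocount of 0.1 FPKM gave 8 higher and a median of -0.13, and one of 5 FPKM gave 4 lower. The most abundant transcript gave 6 higher, 1.5-fold gave 11 higher, and 4-fold gave 1 higher and 1 lower. The median was -0.083 with a filter of 5 FPKM, 0.0288 on TPM and -0.0692 with upper-quartile scaling. Without the median shift removed, a pseudocount of 5 FPKM gave 10 higher. In the same way the most abundant transcript gave 2 lower, 1.5-fold 3 lower, and 4-fold 3 higher and 0 lower. Upper-quartile scaling itself took out most of the shift, with a median of 0.067 over kept loci. It gave 4 higher and 11 lower, both before and after that median was removed. Fold limits move counts by construction. With no filter the median of all loci was 0.05, so relative folds rose by construction, and all 47 genes were counted. For the other settings the cause was not tested. No paired analysis was possible because each genotype has 1 library, so no replicate could be left out either. Medians were treated as moved past 0.1 on the log2 scale, chosen after seeing the data.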

Other observations

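The ERSE letters were also present in promoters of 28 genes outside the set, of which 4 were kept, looked up after the values of the set were seen. Alg12, for a mannosyltransferase that builds the glycan attached to ER proteins, was at 5.76 FPKM in deficient and 2.12 FPKM in floxed cells (0.26). Zfp57 was at 6.14 FPKM in deficient and 1.24 FPKM in floxed cells (0.81), Hnrnpa3 at 19.2 FPKM in deficient and 8.05 FPKM in floxed cells (0.30) and Pan2 at 6.89 FPKM in deficient and 4.33 FPKM in floxed cells (-0.29). None of the 4 was called. Among the other ER foldases, Serpinh1, for the collagen chaperone HSP47, was the gene called higher, at 9.42 FPKM in deficient and 1.43 FPKM in floxed cells (1.25), and it was named after its value was seen.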
